A study of Mus musculus with 19 samples.

Results

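The 40 genes described here act in mitosis, the stage at which a cell separates its copied chromosomes and divides. They were taken by name from the deposited gene table, which holds 34432 genes, and each of the 40 names matched a single row. All 40 were also among the 13976 genes that were tested, which are those that averaged 10 normalized counts or more over the libraries. The series holds 19 RNA-seq libraries of polyadenylated RNA, made from the leg bone marrow of untreated C57/BL6 mice of 8 weeks and 5 genotypes. The groups were mice that carry 2 floxed Cdk8 alleles, the Vav-iCre transgene and a Cdk19 null genotype (DKO, n = 4), mice with floxed Cdk8 and Vav-iCre (CDK8KO, n = 4), Cdk19 null mice (CDK19KO, n = 4), mice with Vav-iCre alone (VAV, n = 4) and wild type mice (WT, n = 3). The Vav promoter drives Cre recombinase in blood cells, so Cdk8 is targeted in those cells. The Cdk19 null genotype is not limited to blood cells. Where Cdk8 was recombined was not measured. Whether each library is a separate animal is not said in the labels, so the p-values here reflect library-to-library spread, part of which may be technical. CDK8 and CDK19 are kinases of the Mediator complex of RNA polymerase II. The question put here is whether the loss of CDK8, of CDK19 or of both goes with another level of mitotic transcripts in marrow.

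A dividing cell makes most of these transcripts late in its cycle. Cyclin A and cyclin B activate CDK1, the Aurora and Polo kinases build the spindle, and the checkpoint proteins hold back chromosome separation until all kinetochores are attached. The anaphase-promoting complex then marks cyclin B and securin for destruction, and the central spindle directs the final split into daughter cells. In bone marrow, the dividing cells are mainly precursors of red cells, granulocytes and lymphocytes, while mature neutrophils no longer divide. The promoters of many of these genes are held silent outside the late cell cycle by the DREAM complex and are activated by MYBL2 and FOXM1 through a short element called the cell cycle genes homology region, often placed downstream of CCAAT boxes bound by NF-Y.

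Printed are the promoters of 5 genes, those with the most reads among the genes named by rule whose promoter holds either of these elements. Each runs 5′ to 3′ on the strand of the gene, from 250 bases before to 50 bases after the RefSeq start, on build GRCm38.p6. Capitals mark the letters TTTGAA of the homology region and CCAAT, on either strand (TTCAAA and ATTGG on the opposite strand). They lie at chr7:135716330-135716629 on the minus strand for Mki67, chr11:99024140-99024439 on the minus strand for Top2a, chr19:37376132-37376431 on the plus strand for Kif11, chr7:80294201-80294500 on the plus strand for Prc1 and chr1:189688037-189688336 on the minus strand for Cenpf.
Mki67: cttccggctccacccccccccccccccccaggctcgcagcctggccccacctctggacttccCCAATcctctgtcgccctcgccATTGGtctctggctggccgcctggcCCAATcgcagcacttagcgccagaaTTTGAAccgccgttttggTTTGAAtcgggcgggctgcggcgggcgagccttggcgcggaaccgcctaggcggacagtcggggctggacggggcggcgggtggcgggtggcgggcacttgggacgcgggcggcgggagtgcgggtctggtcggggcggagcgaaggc
Top2a: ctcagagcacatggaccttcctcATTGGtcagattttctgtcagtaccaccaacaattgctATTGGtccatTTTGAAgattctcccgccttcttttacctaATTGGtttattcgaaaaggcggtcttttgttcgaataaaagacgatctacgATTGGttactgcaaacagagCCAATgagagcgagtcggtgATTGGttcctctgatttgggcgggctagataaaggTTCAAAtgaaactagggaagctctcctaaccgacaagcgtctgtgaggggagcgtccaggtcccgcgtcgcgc
Kif11: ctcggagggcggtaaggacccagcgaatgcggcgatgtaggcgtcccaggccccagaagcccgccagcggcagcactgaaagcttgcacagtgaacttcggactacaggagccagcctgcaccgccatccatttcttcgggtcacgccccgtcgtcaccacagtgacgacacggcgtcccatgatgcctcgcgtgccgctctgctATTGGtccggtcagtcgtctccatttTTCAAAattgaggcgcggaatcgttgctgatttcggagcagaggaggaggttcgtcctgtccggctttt
Prc1: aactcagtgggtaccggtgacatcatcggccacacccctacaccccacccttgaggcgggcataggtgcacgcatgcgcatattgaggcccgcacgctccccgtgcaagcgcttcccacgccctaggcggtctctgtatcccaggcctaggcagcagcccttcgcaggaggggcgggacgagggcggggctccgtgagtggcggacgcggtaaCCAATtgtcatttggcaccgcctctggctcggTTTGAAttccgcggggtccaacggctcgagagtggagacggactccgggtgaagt
Cenpf: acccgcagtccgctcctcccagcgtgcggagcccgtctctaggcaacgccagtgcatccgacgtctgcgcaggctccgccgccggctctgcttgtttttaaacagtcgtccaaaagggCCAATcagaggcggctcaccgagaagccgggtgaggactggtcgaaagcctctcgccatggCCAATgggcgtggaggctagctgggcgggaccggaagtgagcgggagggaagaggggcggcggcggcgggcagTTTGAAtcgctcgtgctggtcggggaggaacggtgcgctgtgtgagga
The Mki67 promoter holds 2 TTTGAA and 3 CCAAT, and that of Top2a holds 2 TTTGAA and 6 CCAAT. Those of Kif11 and Prc1 hold 1 of each, and that of Cenpf holds 1 TTTGAA and 2 CCAAT. In Cenpf, Prc1 and Kif11 the TTTGAA lies close to the start, opening 3 bases after it in Cenpf, and 5 and 19 bases before it in Prc1 and Kif11, whereas in Mki67 the copies open 116 and 98 bases before it.

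Promoters were at hand for 33 of the 40 genes. TTTGAA on either strand was present in 24 of the 33 genes (72.7%), against 17.8% of 32544 mouse promoters of the same length. CCAAT on either strand was present in 25 of the 33 (75.8%), against 37.4% of all promoters, and 21 of the 33 (63.6%) held both, against 6.92%. TTTGAA within 50 bases of the start was found in 22 of the 33 (66.7%), against 4.93% of all promoters. The letters TATAAA were found in 1 of the 33 (3.03%), against 13.6% of all promoters. A gene with several starts was counted where any of its promoters held the letters. The promoters of 5 genes, Mad2l1, Nusap1, Birc5, Nuf2 and Pttg1, held neither TTTGAA nor CCAAT, and of these Mad2l1 and Nusap1 have more reads than Prc1 and Cenpf. A match is a description of the letters and not a measured binding site.

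**Figure D1:**
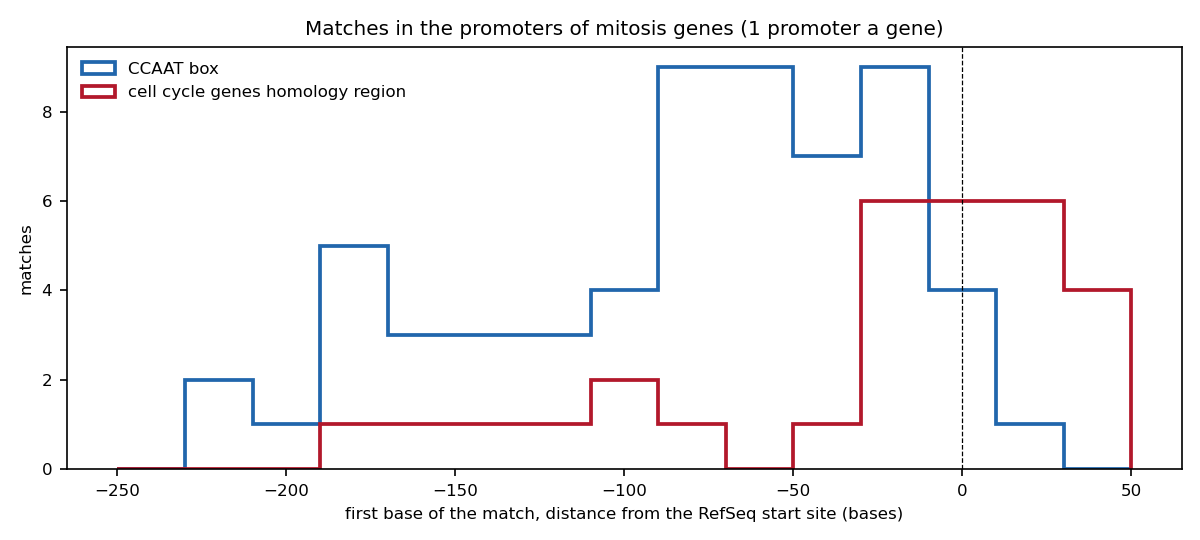
Positions of the TTTGAA (cell cycle genes homology region, red) and CCAAT (blue) matches on either strand in the promoters of the 33 mitosis genes that have one in RefSeq; x axis, first base of the match in bases from the start site (0, dashed line); y axis, number of matches. CCAAT matches lie mostly before the start, and TTTGAA matches lie mostly within 50 bases of it, where 22 of the 33 genes have one.

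Libraries held 14881701 to 33010241 reads assigned to genes. Cdk19 averaged 1173 ± 43.1 normalized counts in DKO and 1091 ± 62.5 in CDK19KO, against 3668 ± 525 in VAV and 3157 ± 99.7 in WT. It was lower in the Cdk19 null genotypes, but reads remained there, so these counts alone do not show a null. Cdk8 averaged 1013 ± 249 in CDK8KO against 994 ± 230.1 in VAV, but such gene-level counts cannot show whether a floxed part is gone. Late neutrophil markers took 2.95% to 5.94% of the normalized counts, and those of early granulocytes, erythroid precursors and B cell precursors were detected in every genotype. CDK8KO replicate 1 and VAV replicate 3 stood apart with 3.68% and 3.30% of their counts from 21 erythroid markers, against 0.119% to 1.497% in the other libraries. The libraries with skeletal muscle markers were CDK19KO replicate 4 (0.0831%) and DKO replicate 4 (0.0237%), and no other library exceeded 0.00118%.

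All 40 genes were well measured. None was at 0 in any library, and the lowest value was 136 normalized counts. Mean levels ran between 178 normalized counts for Pttg1, the securin that guards separase, and 38388 for Mki67, the gene of the Ki-67 antigen that coats mitotic chromosomes. Per kilobase of exon the median of the 40 genes was 447 normalized counts, against 110 over the tested genes, and 38 of the 40 were above that median. Cdc25c, a phosphatase that switches on CDK1, had the lowest level per kilobase (61.2), and Mki67 had the highest (3816). The coefficient of variation over the 19 libraries had a median of 17.6% for the 40 genes, against 21.4% for the tested genes.

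**Figure D2:**
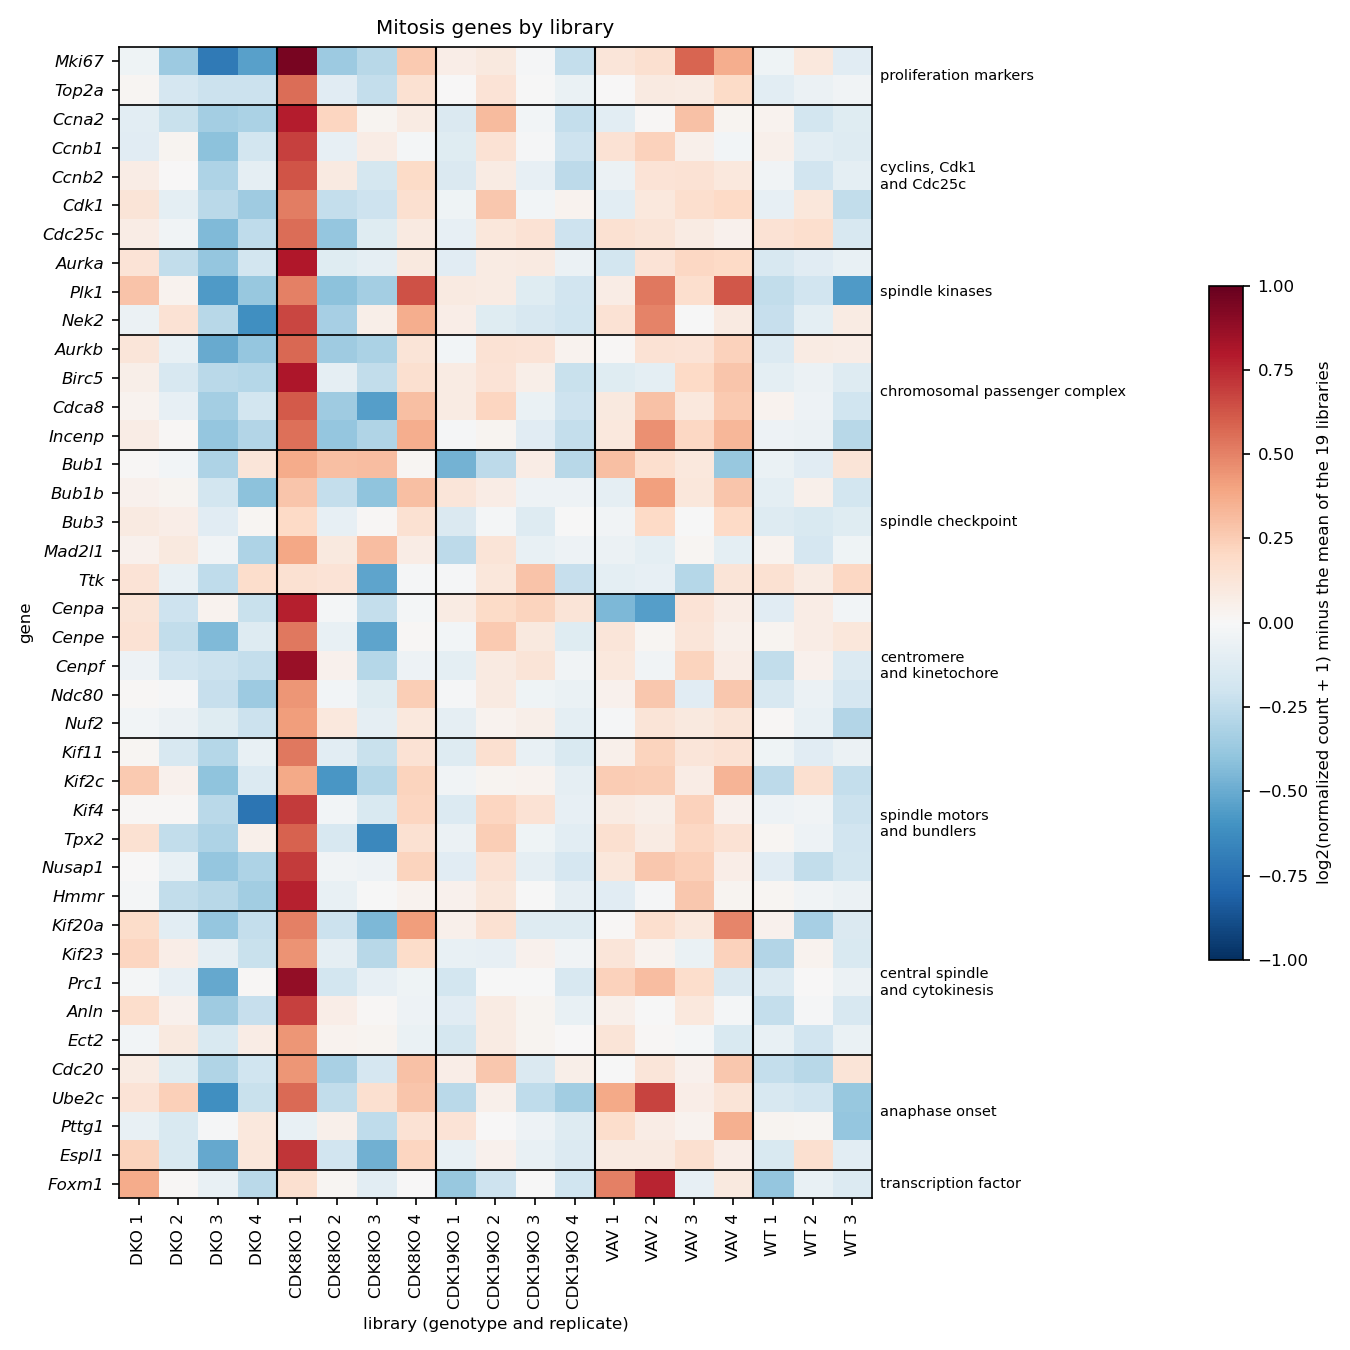
Each row is a mitosis gene, grouped by role, and each column a library; colour gives log2(normalized count + 1) minus the mean of the gene over the 19 libraries. CDK8KO replicate 1 is the darkest red column and is the highest library for 34 of the 40 genes, and DKO replicates 3 and 4 are mostly blue.

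The order of the genotype means varied between genes. The lowest mean was that of DKO for 23 of the 40 genes, of WT for 12, of VAV for 3 and of CDK19KO for 2, and the highest was that of CDK8KO for 21, of VAV for 18 and of WT for 1. The highest library was CDK8KO replicate 1 for 34 genes, and the lowest was a DKO library for 22, namely replicate 3 for 14 and replicate 4 for 8. For each of the 14 genes named by rule, the libraries of genotypes next to each other in the order of means overlapped. The summed level of the 40 genes averaged 122967 ± 15456 normalized counts in DKO, 158379 ± 47430 in CDK8KO, 137860 ± 10416 in CDK19KO and 157420 ± 8292 in VAV (SD, n = 4 each), and 133359 ± 3840 in WT (SD, n = 3). Mki67 alone made up 21.2% to 33.2% of the sum of a library. The log2 difference of the summed level between DKO and VAV was -0.36, against -0.23 without Mki67 and -0.25 for the mean of the log2 levels, and between DKO and CDK8KO it was -0.37, -0.27 and -0.23 on the same 3 measures. Without Mki67 the sums ran between 84251 and 106883 in DKO, and between 107000 and 114757 in VAV, still without overlap. As these are bulk samples, fewer dividing cells and less RNA per dividing cell cannot be told apart.

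DKO against VAV asks for the effect of losing both kinases, with Vav-iCre present in both genotypes. Of the 40 genes, 36 had a lower mean log2 level in DKO, where 51.2% of the tested genes did, and 4 had a higher one. The median log2 difference was -0.26, against -0.01 over the tested genes. The same VAV libraries were higher than WT on average for 37 of the 40 genes, with a median of 0.21. The mean log2 level over the 40 genes averaged 10.92 in DKO, 10.96 in WT and 11.17 in VAV. The summed level ran between 106957 and 142805 in DKO, and between 129704 and 137361 in WT. DKO was not tested against WT. None of the 40 passed an adjusted p of 0.05 with limma, which called 1.52% of the tested genes. Without adjustment, 5 were below 0.05 with limma and all 5 were lower in DKO (Mki67, Nusap1, Incenp, Ube2c and Plk1), that is 5 of 40 where 8.3% of the tested genes were lower at that level. The DKO and VAV libraries did not overlap for 8 genes that were lower in DKO (Mki67, Cdca8, Incenp, Cenpf, Nuf2, Kif11, Kif4 and Nusap1), against 4.33% of the tested genes, and for 0 that were higher, against 4.16%. On the recovered reads, the quasi-likelihood test of edgeR called 0 of the 40 and 1.43% of the tested genes, and DESeq2 called 1 of the 40, Mki67, and 3.61%, and each had 5 genes below an unadjusted 0.05.

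Mki67 (ENSMUSG00000031004, chr7:135689784-135716361 on the minus strand, GRCm38) and Top2a (ENSMUSG00000020914, chr11:98992943-99024189 on the minus strand) are the usual markers of proliferating cells. Mki67 had 35922, 28725, 22706 and 25370 normalized counts in DKO, against 40253, 41357, 55571 and 47584 in VAV. Every DKO library was below every VAV library. The log2 difference by limma was -0.72 ± 0.22 (SE, 95% interval -1.18 to -0.26), with an unadjusted p of 0.00401 and an adjusted p of 0.128. DESeq2 gave -0.71 with an adjusted p of 0.048, and limma without the 2 erythroid-rich libraries gave -0.63 with an adjusted p of 0.0481, both past the threshold, while the adjusted p over all alternatives ran between 0.048 and 0.335. Top2a, which encodes the topoisomerase that untangles chromosomes, had 13439, 11822, 11446 and 11443 normalized counts in DKO, against 13290, 14098, 14017 and 15120 in VAV. DKO replicate 1 was above the lowest VAV library, and the other 3 DKO libraries were below all 4. The log2 difference was -0.23 ± 0.13, with an adjusted p of 0.392 by limma.

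**Figure D3:**
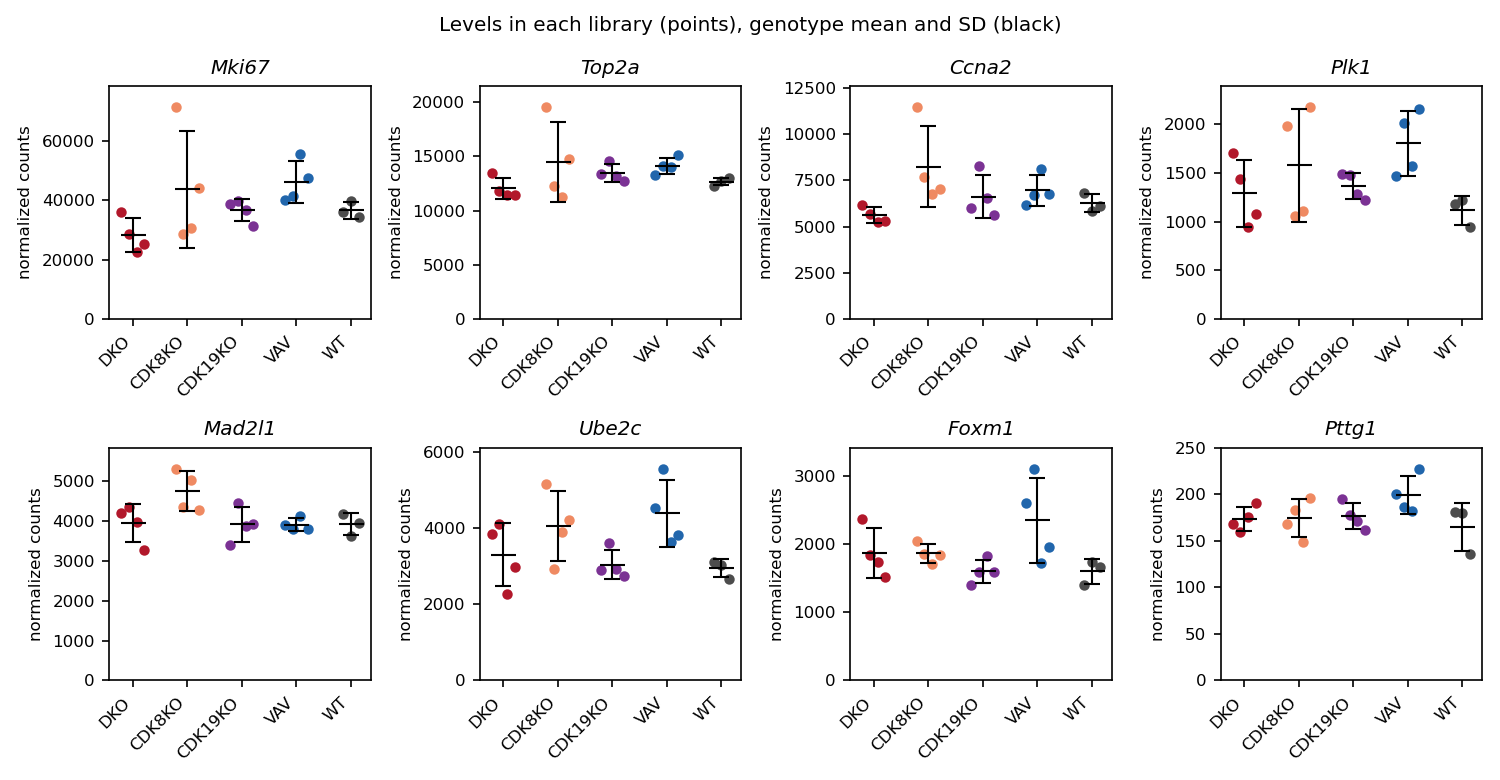
Normalized counts of 8 of the mitosis genes in each library (points) with the mean and SD of each genotype (black lines, n = 4, and n = 3 for WT); genotypes run DKO, CDK8KO, CDK19KO, VAV and WT along the x axis. The Mki67 points of DKO, at most 35922, lie below all 4 VAV points, and CDK8KO replicate 1 is the top point for Mki67 (71423), Top2a (19539) and Ccna2 (11471).

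The cyclins, Cdk1 and Cdc25c were all 5 lower on average in DKO, with log2 differences between -0.30 and -0.16, and none passed. Ccna2, cyclin A2, which acts in S phase and at the entry into mitosis (ENSMUSG00000027715, chr3:36564865-36572150 on the minus strand), had 6195, 5706, 5259 and 5331 normalized counts in DKO, against 6195, 6721, 8135 and 6786 in VAV. The highest DKO library and the lowest VAV library were level, and the rest did not overlap. Its log2 difference was -0.30 ± 0.15, with an adjusted p of 0.337 by limma. Cdk1, the kinase that drives mitosis, averaged 1852 in DKO and 2179 in VAV.

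The 3 spindle kinases differed by -0.50 to -0.26 on the log2 scale. Plk1, the Polo kinase of centrosomes, kinetochores and the central spindle (ENSMUSG00000030867, chr7:122159439-122169873 on the plus strand), had 1707, 1432, 943 and 1075 normalized counts in DKO, against 1470, 2016, 1570 and 2156 in VAV. DKO replicate 1 lay above VAV replicates 1 and 3, so the groups overlapped. The log2 difference was -0.50 ± 0.23, with an unadjusted p of 0.038 and an adjusted p of 0.285 by limma. Aurka, the Aurora kinase of the spindle poles, averaged 1015 in DKO and 1210 in VAV, and Nek2, a centrosome kinase, averaged 696 in DKO and 899 in VAV.

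The 4 subunits of the chromosomal passenger complex, which corrects faulty attachments of chromosomes to the spindle, differed by -0.42 to -0.23. Incenp, its scaffold (ENSMUSG00000024660, chr19:9872296-9899551 on the minus strand), had 2750, 2642, 1995 and 2137 normalized counts in DKO, against 2808, 3583, 3012 and 3301 in VAV. The groups did not overlap, and the gap between DKO replicate 1 and VAV replicate 1 was small. The log2 difference was -0.42 ± 0.17, with an adjusted p of 0.246 by limma. Aurkb, the kinase of the complex, averaged 1200 in DKO and 1501 in VAV, and Birc5 (survivin) averaged 1574 in DKO and 1849 in VAV.

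The spindle checkpoint genes were the least uniform, with 3 of 5 lower in DKO and a median log2 difference of -0.07. Mad2l1, which encodes the checkpoint protein MAD2 (ENSMUSG00000029910, chr6:66535390-66547220 on the plus strand), had 4191, 4358, 3960 and 3275 normalized counts in DKO, against 3899, 3804, 4125 and 3797 in VAV, and the VAV libraries all lay within the range of DKO. Its log2 difference was 0.01 ± 0.11 (95% interval -0.22 to 0.23), and its sign depends on which library is in the fit. Bub1, a kinase that recruits checkpoint proteins to kinetochores (ENSMUSG00000027379, chr2:127801122-127831865 on the minus strand), had 1961, 1916, 1575 and 2118 in DKO, against 2401, 2183, 2091 and 1498 in VAV. The lowest library was a VAV one, and the log2 difference was -0.10 ± 0.15. Ttk, the MPS1 kinase that starts the checkpoint (ENSMUSG00000038379, chr9:83834689-83872389 on the plus strand), had 1239, 1066, 942 and 1271 in DKO, against 1052, 1064, 922 and 1232 in VAV. Its groups overlapped almost wholly, with a log2 difference of 0.08 ± 0.15.

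Of the 5 centromere and kinetochore genes, 4 were lower on average in DKO, with values down to -0.26. Cenpf, a large kinetochore protein (ENSMUSG00000026605, chr1:189640606-189688086 on the minus strand), had 3693, 3355, 3300 and 3245 normalized counts in DKO, against 4116, 3734, 4455 and 4030 in VAV. The groups did not overlap, and the log2 difference was -0.26 ± 0.17 with an adjusted p of 0.456 by limma. Cenpa, the histone H3 variant that marks centromeres, went the other way on average, with 1656 in DKO and 1540 in VAV and a log2 difference of 0.13 ± 0.18.

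The 6 spindle motors and bundlers were all lower on average in DKO, between -0.37 and -0.24. Kif11, the motor that pushes spindle poles apart (ENSMUSG00000012443, chr19:37376403-37421859 on the plus strand), had 6381, 5630, 5168 and 5980 normalized counts in DKO, against 6510, 7316, 6851 and 6962 in VAV. The groups did not overlap, and the log2 difference was -0.26 ± 0.13 with an adjusted p of 0.339 by limma. Nusap1, which bundles spindle microtubules, had the second-smallest p of the 40 genes, with 3550 ± 463 in DKO and 4554 ± 301 in VAV (SD, n = 4 each) and a log2 difference of -0.37 ± 0.14 with an adjusted p of 0.213 by limma.

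The central spindle and cytokinesis genes spread between -0.33 for Kif20a, a motor of the central spindle, and 0.00 for Ect2, which starts the contractile ring. Prc1, which cross-links the central spindle (ENSMUSG00000038943, chr7:80294450-80316259 on the plus strand), had 3883, 3724, 2755 and 3964 normalized counts in DKO, against 4610, 4881, 4445 and 3558 in VAV. VAV replicate 4 was below 3 of the DKO libraries, and the log2 difference was -0.29 ± 0.18 with an adjusted p of 0.446 by limma.

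All 4 anaphase genes were lower on average in DKO. Ube2c, the ubiquitin-conjugating enzyme of the anaphase-promoting complex (ENSMUSG00000001403, chr2:164769898-164778822 on the plus strand), had 3845, 4119, 2282 and 2995 normalized counts in DKO, against 4546, 5573, 3644 and 3818 in VAV. The upper DKO libraries overlapped with the lower VAV ones, and the log2 difference was -0.43 ± 0.19 with an unadjusted p of 0.0344 and an adjusted p of 0.273 by limma. Pttg1 (ENSMUSG00000020415, chr11:43420250-43426251 on the minus strand), the least abundant of the 40, had 168, 159, 176 and 190.3 in DKO, against 201, 187, 182 and 227 in VAV. Only DKO replicate 4 reached into the range of VAV, and the log2 difference was -0.20 ± 0.14 with an adjusted p of 0.527 by limma. Foxm1, the transcription factor of late cell cycle genes (ENSMUSG00000001517, chr6:128362967-128376146 on the plus strand), had 2378, 1848, 1744 and 1526 in DKO, against 2602, 3114, 1731 and 1962 in VAV. The groups overlapped, with a log2 difference of -0.31 ± 0.16 and an adjusted p of 0.368 by limma.

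Cell type markers moved beside these values. Erythroid precursor markers took 0.154% to 0.437% of the counts in DKO, against 0.119% to 3.30% in VAV, where 3 of the 4 libraries had at most 0.260%. Of the 21 tested erythroid markers 20 were lower on average in DKO and 0 passed with limma. Early granulocyte markers took 0.188% to 0.428% in DKO and 0.248% to 0.612% in VAV. Of these 10 markers 5 were higher and 5 lower on average in DKO, with a median log2 difference of -0.07, and 1 passed, Fcnb (ficolin B), lower in DKO with -2.93. Late neutrophil markers took 3.20% to 4.49% in DKO and 3.69% to 5.94% in VAV. All 12 were lower on average in DKO, with a median log2 difference of -0.58. Of these, 3 passed with limma (Camp, Mmp8 and Il1b) and 6 with DESeq2. Megakaryocyte markers were lower on average in DKO for 8 of 8, with a median of -1.22, and 0 passed with limma and 3 with DESeq2. T cell markers were higher on average in DKO for 9 of 9, with a median of 0.92, and 1 passed with limma (Cd8a) and 2 with DESeq2. Without the 2 erythroid-rich libraries the count of the mitosis genes was 36 lower and 4 higher, with a median of -0.24. Without the 2 muscle-rich libraries it was 37 lower and 3 higher, with a median of -0.24. Leaving out libraries need not match the marker shares of the rest, so it cannot decide the part of erythroid cells or muscle. The part of the granulocyte, megakaryocyte and T cell markers in the result was not tested.

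**Figure D4:**
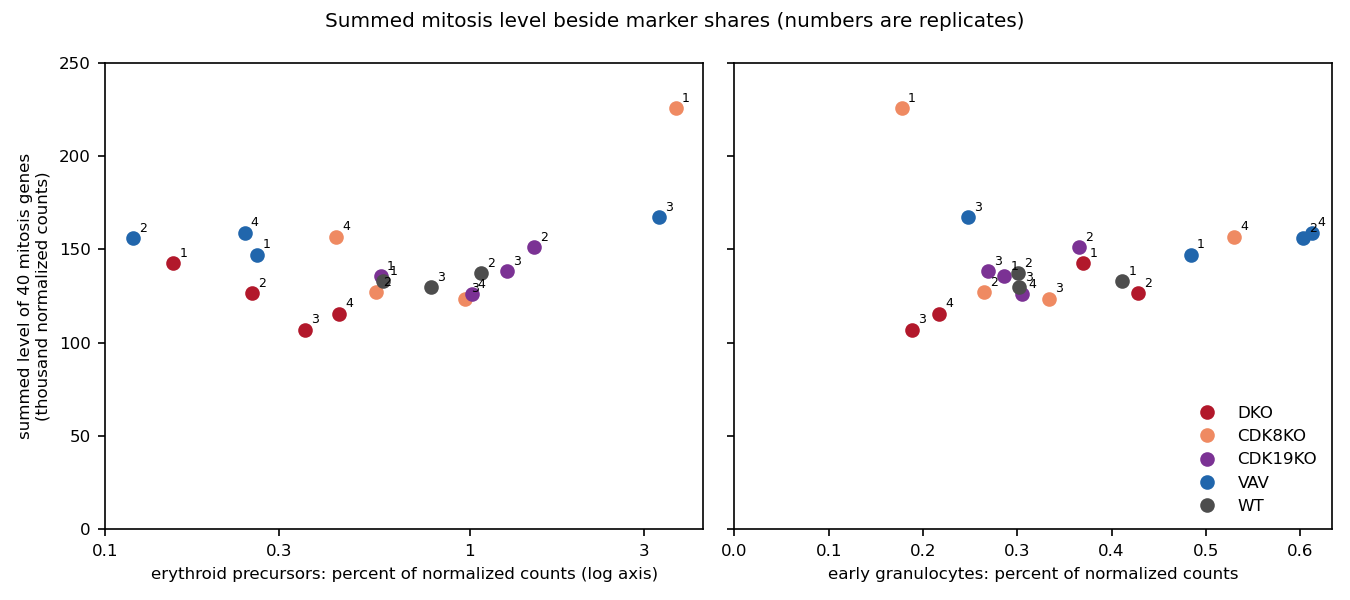
Summed normalized counts of the 40 mitosis genes in each library (y axis) against the percent of normalized counts from erythroid precursor markers (left, log axis) and from early granulocyte markers (right); colours are genotypes and numbers are replicates. CDK8KO replicate 1 is highest at 225900, with 3.68% erythroid and 0.178% early granulocyte, the lowest early granulocyte share of the 19 libraries. DKO replicates 3 and 4 have the lowest sums, at 106957 and 115602, with 0.188% and 0.217% early granulocyte.

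CDK8KO against VAV isolates the loss of Cdk8 alone, and shares the VAV libraries with the comparison above. Here 19 genes were higher and 21 lower on average in CDK8KO, where 50.7% of the tested genes were lower, and the median log2 difference was -0.01. None passed with limma, edgeR or DESeq2, which called 0%, 0% and 0.00716% of the tested genes. Mad2l1 was the one gene below an unadjusted 0.05 with each of the tools, higher in CDK8KO, as were 3.78% of the tested genes with limma. It had 5305, 4356, 5022 and 4275 normalized counts in CDK8KO, against 3899, 3804, 4125 and 3797 in VAV. No CDK8KO library overlapped with VAV, which held for 1 of the 40 genes and for 1.02% of the tested genes in that direction. Its log2 difference was 0.27 ± 0.11 (95% interval 0.05 to 0.50), with an adjusted p of 0.586 by limma. Mki67 had 71423, 28816, 30525 and 44293 in CDK8KO, against 40253, 41357, 55571 and 47584 in VAV. The CDK8KO libraries lay on both sides of the VAV range, and the log2 difference was -0.17 ± 0.22. Foxm1 had 2054, 1862, 1710 and 1842 in CDK8KO against 2602, 3114, 1731 and 1962 in VAV, overlapping, with a log2 difference of -0.30 ± 0.16 and an adjusted p of 0.59 by limma. The balance of the genes rested on CDK8KO replicate 1, the erythroid-rich library. Without it 5 were higher and 35 lower, with a median of -0.16. Erythroid markers were higher on average in CDK8KO for 21 of 21, with a median log2 difference of 1.12. Early granulocyte markers were lower for 10 of 10 (median -0.43) and megakaryocyte markers for 8 of 8 (-0.62). None of these markers passed with limma, and their part in the result was not tested.

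CDK19KO against WT isolates the loss of Cdk19 in mice without Cre. In it 31 genes were higher and 9 lower on average in CDK19KO, where 50.2% of the tested genes were higher, and the median log2 difference was 0.08. None passed with limma, edgeR or DESeq2, which called 0.0215%, 0.0215% and 0.107% of the tested genes. None was below an unadjusted 0.05 by any of the tools, against 3.07% of the tested genes with limma. The groups did not overlap for 2 genes, Plk1 and Cenpa, both higher in CDK19KO, against 3.56% of the tested genes in that direction. Plk1 had 1484, 1481, 1283 and 1225 normalized counts in CDK19KO, against 1177, 1223 and 942 in WT, a gap of few counts, and a log2 difference of 0.30 ± 0.24 (95% interval -0.21 to 0.81). Bub1 had the smallest p of the 40, with 1400, 1626, 2045 and 1608 in CDK19KO against 1856, 1804 and 2134 in WT. Its groups overlapped, with a log2 difference of -0.22 ± 0.16 and an adjusted p of 1 by limma. Mki67 averaged 36691 ± 3678 in CDK19KO (SD, n = 4) and 36687 ± 2825 in WT (SD, n = 3). Leaving out CDK19KO replicate 2 gave a median of 0.04, and leaving out WT replicate 3 also gave 0.04.

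DKO against CDK8KO adds the loss of Cdk19 to that of Cdk8, and shares DKO libraries with the comparison against VAV. In DKO 38 genes were lower and 2 higher on average, where 50% of the tested genes were lower, and the median log2 difference was -0.23. None passed with limma, which called 1.7% of the tested genes, or with edgeR, which called 1.57%, and DESeq2 called 1 of the 40, Ccna2, and 5.09% of the tested genes. Below an unadjusted 0.05 were 10 genes with limma, all lower in DKO, where 8.55% of the tested genes were lower at that level, and 14 each with edgeR and DESeq2. Ccna2 had 6195, 5706, 5259 and 5331 normalized counts in DKO, against 11471, 7708, 6770 and 7036 in CDK8KO. It was the one gene of the 40 whose groups did not overlap, against 3.81% of the tested genes in that direction. Its log2 difference by limma was -0.52 ± 0.15 (95% interval -0.84 to -0.21) with an adjusted p of 0.0884, and DESeq2 gave -0.55 with an adjusted p of 0.0236, within a range of 0.0236 to 0.296 over the alternatives. Mki67 had 35922, 28725, 22706 and 25370 in DKO, against 71423, 28816, 30525 and 44293 in CDK8KO, with a log2 difference of -0.56 ± 0.22 and an adjusted p of 0.209 by limma. Without CDK8KO replicate 1, 30 genes were lower and 10 higher, with a median of -0.07, and the log2 difference of Mki67 was -0.29 and that of Ccna2 -0.35. Erythroid markers took 0.154% to 0.437% in DKO and 0.430% to 3.68% in CDK8KO. All 21 tested were lower on average in DKO, with a median log2 difference of -1.53. None of them passed with limma and 4 passed with DESeq2. Below an unadjusted 0.05 were 18 of them with limma and 21 each with edgeR and DESeq2.

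DKO against CDK19KO adds the loss of Cdk8, but here DKO carries Vav-iCre and CDK19KO does not, so Cre and Cdk8 cannot be told apart. In DKO 32 genes were lower and 8 higher on average, where 51.5% of the tested genes were lower, and the median was -0.12. None passed with limma, edgeR or DESeq2, which called 2%, 1.78% and 4.3% of the tested genes, and none was below an unadjusted 0.05 by any of them, against 15.6% of the tested genes with limma. The groups overlapped for all 40 genes, whereas 7.74% of the tested genes were lower and 7.27% higher in DKO without overlap. Mki67 had 35922, 28725, 22706 and 25370 in DKO, against 38807, 39658, 36829 and 31468 in CDK19KO. DKO replicate 1 lay above CDK19KO replicate 4, and the log2 difference was -0.40 ± 0.22 with an adjusted p of 0.395 by limma. Ccna2 differed by -0.22 ± 0.15, with 5623 ± 429 in DKO and 6621 ± 1178 in CDK19KO (SD, n = 4 each). Erythroid markers were lower on average in DKO for 21 of 21 (median -1.36), and 17 did not overlap. Megakaryocyte markers were lower for 8 of 8 (-1.47). None of either list passed with limma. With the mean log2 level of the erythroid markers as a covariate, the median of the 40 genes was -0.02, with 23 lower and 17 higher. As these markers go with the genotype, this fit cannot tell erythroid content and genotype apart. The part of the other markers was not tested.

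VAV against WT is the control for the Cre transgene, and shares VAV with the comparisons above. In VAV 37 genes were higher and 3 lower on average than in WT, where 49.2% of the tested genes were higher, and the median log2 difference was 0.21, against -0.01 over the tested genes. None passed with limma, edgeR or DESeq2, which called 0.093%, 0.1% and 2.3% of the tested genes. Below an unadjusted 0.05 were 6 genes with limma, all higher in VAV (Foxm1, Plk1, Ube2c, Nusap1, Bub3 and Incenp), where 8.92% of the tested genes were higher at that level, and 5 with edgeR and 6 with DESeq2. The groups did not overlap for 12 genes, all higher in VAV, against 6.93% of the tested genes in that direction. Foxm1 had 2602, 3114, 1731 and 1962 normalized counts in VAV, against 1402, 1744 and 1668 in WT, so VAV replicate 3 lay within the WT range. The log2 difference was 0.52 ± 0.18, with an adjusted p of 0.194 by limma, and without VAV replicate 3 it was 0.65 with an adjusted p of 0.0451, within a range of 0.0266 to 0.561 over the alternatives. Plk1 had 1470, 2016, 1570 and 2156 in VAV, against 1177, 1223 and 942 in WT, and Ube2c 4546, 5573, 3644 and 3818 in VAV, against 3122, 3051 and 2679 in WT. Neither gene overlapped between the groups, and their log2 differences were 0.68 ± 0.24 and 0.56 ± 0.20, with adjusted p-values of 0.216 and 0.222 by limma. Mki67 had 40253, 41357, 55571 and 47584 in VAV, against 35920, 39816 and 34325 in WT, without overlap, and a log2 difference of 0.32 ± 0.24. Early granulocyte markers took 0.248% to 0.612% in VAV and 0.301% to 0.412% in WT, and all 10 were higher on average in VAV, with a median log2 difference of 0.33. Late neutrophil markers were higher in VAV for 11 of 12 (median 0.36) and monocyte and macrophage markers for 8 of 8 (0.51). Erythroid precursor markers were lower in VAV for 21 of 21 (median -0.65) and mature B cell markers for 8 of 8 (-0.69). None of the markers of these 5 lists passed with limma, and their part in the result was not tested.

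**Figure D5:**
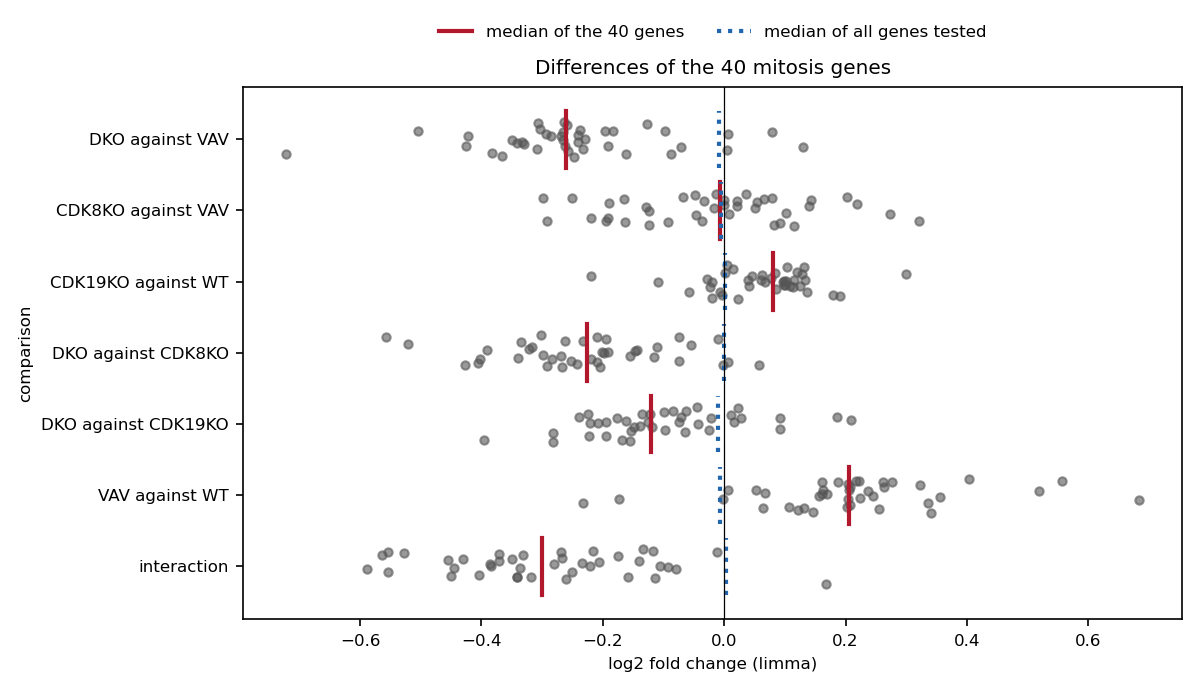
Log2 fold changes (limma) of the 40 mitosis genes (points) in the 7 comparisons; red bars are the medians of the 40 genes and blue dotted bars those of all genes tested. The median lies at -0.26 for DKO against VAV and at 0.21 for VAV against WT, and near 0 for CDK8KO against VAV.

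The interaction asks whether the loss of Cdk19 has another effect in mice with floxed Cdk8 and Cre (DKO less CDK8KO) than in mice without (CDK19KO less WT). It was negative for 39 of the 40 genes and for 49.7% of the tested genes, with a median of -0.30 on the log2 scale, against 0.00 over the tested genes. None passed with limma, edgeR or DESeq2, which called 0.15%, 0.129% and 0.701% of the tested genes. Below an unadjusted 0.05 were 5 genes with limma, all negative (Ccna2, Nusap1, Nuf2, Kif4 and Ndc80), where 4.14% of the tested genes were negative at that level, and 6 each with edgeR and DESeq2. Ccna2 had the smallest p, with a value of -0.59 ± 0.22 (95% interval -1.05 to -0.12) and an adjusted p of 0.476 by limma, and Mki67 had -0.55 ± 0.32. Without CDK8KO replicate 1, 33 genes were negative and 7 positive, with a median of -0.16.

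Across the 19 libraries most of the genes varied together. The median Pearson correlation of log2 levels over the 780 pairs of genes was 0.65, and 96.9% of the pairs were above 0. Without CDK8KO replicate 1 the median was 0.50, and on deviations from the genotype means it was 0.65, or 0.44 with that library also left out. Top2a, Kif11 and Nusap1 had the highest median correlation with the others (0.80, 0.79 and 0.78), and Ttk, Pttg1 and Bub1 the lowest (0.15, 0.18 and 0.21). The lower end of this order rests in part on CDK8KO replicate 1. Without it the lowest were Bub1 (-0.06), Ect2 (0.0024), Mad2l1 (0.0092) and Cenpa (0.03). Ttk came next with 0.07, and Pttg1 had 0.33. All points share the same libraries and their scaling, so these values describe the set and carry no test.

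Of the 40 genes, 8 overlap with a tested gene on the opposite strand in the annotation, and whether reads were counted by strand is not given in the sources used here. They are Ccna2 with Exosc9, Bub3 with Fgfr2, Kif4 with Pdzd11, Nusap1 with Oip5, Kif20a with Cdc23, Prc1 with Rccd1, Cdc20 with Elovl1, and Ube2c with Tnnc2. Exosc9 had 540 to 754 normalized counts in DKO and 563 to 748 in VAV, below the level of Ccna2 in each library. Tnnc2, a skeletal muscle troponin, had 731 normalized counts in CDK19KO replicate 4 and 139 in DKO replicate 4, and at most 16.6 elsewhere, and Ube2c had 2744 and 2995 in those libraries.

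Other genes of the cell cycle were described from lists of 8 processes, and 4 of their genes passed with limma in DKO against VAV or against CDK8KO. In DKO against VAV, Ccnd3 (cyclin D3, a G1 cyclin) fell with a log2 difference of -0.50 ± 0.11 and an adjusted p of 0.0204 by limma, and Cdkn2c (the inhibitor p18 of CDK4 and CDK6) fell with -0.89 ± 0.16 and an adjusted p of 0.00700. These were 1 of 8 tested G1 cyclins and kinases and 1 of 5 tested CDK inhibitors. In DKO against CDK8KO, Cdkn2c fell with -0.80 ± 0.16 (adjusted p of 0.0149), Rfc4 of the clamp loader with -0.97 ± 0.21 (0.0205) and Cks2, a CDK-binding subunit, with -0.62 ± 0.14 (0.0276), by limma. They were 1 of 5 CDK inhibitors, 1 of 30 S phase genes and 1 of 55 other mitosis genes. DESeq2 called more in that comparison, with 12 of the 30 S phase genes and 5 of the 55 other mitosis genes, against 5.09% of the tested genes.

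The S phase genes were lower on average in DKO than in VAV for 29 of 30, with a median log2 difference of -0.29, and 0 passed with limma. In DKO against CDK8KO the same count was 29 of 30, with a median of -0.49. Of the 30, 20 were lower with an unadjusted p below 0.05 by limma, where 8.55% of the tested genes were. This list was not summarized without CDK8KO replicate 1, the erythroid-rich library. Other mitosis genes were lower in DKO than in VAV for 45 of 55 with a median of -0.11, and condensin and cohesin genes for 15 of 17 with a median of -0.22. The DREAM, Myb-MuvB and E2F regulators were lower for 14 of 18 (median -0.12), the mitotic entry genes for 7 of 9 (median -0.07) and the subunits of the anaphase-promoting complex for 6 of 14 (median 0.03), and none of these passed with limma. In VAV against WT, the S phase genes had a median of -0.02 with 13 of 30 higher, beside the 0.21 of the 40 genes, and the difference between the lists was not tested.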

How the data were processed

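Per the labels' protocols, Trizol was used for RNA, the Kapa mRNA Hyper prep kit for the libraries and a NovaSeq X for paired reads. Salmon 1.4.0, DESeq2 and the mm10 genome are named, with no roles, in the submitters' processing notes. The deposited table holds normalized counts, which are a signal rather than raw reads. Dividing a library by a single step gave whole reads for 100% of its values, within 0.001 read; the quasi-likelihood and DESeq2 tests used these reads, and limma stayed the main test. The lowest chi-square per degree of freedom between libraries of a genotype was 14.7, so none was a duplicate. All columns of the table were used.

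For limma 3.58.1 (R 4.3.3), log2(normalized count + 1) was modelled with all 5 genotypes in 1 fit (trended variance, 14 residual degrees of freedom), over 13976 genes averaging 10 or more, with Benjamini-Hochberg adjustment over them in each of 7 comparisons and a threshold of 0.05. Fold changes on this scale understate those of low genes. edgeR 4.0.16 (quasi-likelihood) and DESeq2 1.42.0 were run on the recovered reads. Other alternatives were pseudocounts of 0.5 and 5, no filter or a mean of at least 50, TMM scaling, array weights, only the compared genotypes, a replicate block, an erythroid covariate, and fits without libraries. The summed level without Mki67 was added after the data were seen.

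The genes and lists were chosen with earlier results of these data known. A ± gives the SD beside normalized counts and the SE beside log2 differences. Named with their library values were Mki67, Top2a, the most abundant gene of each of 10 roles, the gene with the smallest p in 4 comparisons, and the 2 with the lowest correlation; Nusap1, Aurka and other examples were chosen after their values were seen. Of the listed genes, 2 matched no row of the table (Ahsp and Lin54). Gene coordinates come from GENCODE vM21 (GRCm38) and promoters from RefSeq (GRCm38.p6). Incenp, Cdc25c, Foxm1, Kif20a, Ccna2, Aurkb and Tpx2 had no promoter in that table. Scripts were tested on simulated data.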

Additional observations from a re-analysis of the deposited data

Results flagged for a closer look

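Prc1 in CDK8KO replicate 1 stood far from the other libraries of its genotype, at 7243 normalized counts against 3463 to 3811 in the other 3. The same library was the highest of all 19 for 34 of the 40 genes, and it had the largest erythroid share (3.68%). It was the 1 value singled out in 60 groups of 4 libraries, and chance singles out about 1 in 20 such groups.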

How the results depend on the processing

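No gene of the 40 passed in any comparison under most settings. The count was 1 in DKO against VAV with DESeq2 and without the 2 erythroid-rich libraries (Mki67 in each), 1 in DKO against CDK8KO with DESeq2 (Ccna2), and 1 in VAV against WT with array weights (Plk1) and without the erythroid-rich libraries (Foxm1); leaving out 1 library at a time gave 0 to 1 in VAV against WT and 0 in the other comparisons. The cause of these calls was not tested. The log2 difference of Mad2l1 in DKO against VAV (0.01) ran between -0.043 and 0.094 when 1 library was left out, and that of Mki67 in CDK8KO against VAV (-0.17) between -0.43 and 0.0023. The medians of the 40 genes moved by less than 0.174 (log2), the SD of the library medians within genotypes, under each alternative run. They ran between -0.32 and -0.20 in DKO against VAV, -0.17 and 0.09 in CDK8KO against VAV (-0.01 in the report), 0.04 and 0.11 in CDK19KO against WT, -0.33 and -0.07 in DKO against CDK8KO, -0.18 and -0.02 in DKO against CDK19KO, 0.18 and 0.24 in VAV against WT, and -0.39 and -0.16 for the interaction. With the replicate number as a block, no call over the 40 genes changed and the median in DKO against VAV was -0.26. Deviations of same-numbered libraries correlated between -0.27 and 0.31 over all genotype pairs, so the numbers were not taken to pair them. The highest value was that of DKO replicate 4 with CDK19KO replicate 4, the muscle-rich libraries. Same-numbered pairs averaged 0.12 in DKO against CDK19KO, and other pairs -0.04. In VAV against WT these means were -0.08 and 0.03. With at most 4 libraries a genotype, the 95% intervals of single genes had a median half-width of 0.33 (log2, DKO against VAV); this is a precision and not a limit of detection.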
